A study of Mus musculus with 3 samples.

Results

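The cytosolic ribosomal proteins were followed over 3 mouse arrays as the rows (probe sets) of the deposited table that carry a single symbol of the Rpl or Rps series, a stalk protein symbol (Rplp0, Rplp1, Rplp2) or Rpsa, without pseudogene symbols and the Rps6k kinases. The rule found 104 rows for 64 genes, of 41345 rows and 22180 singly named genes in all. RNA was measured once each in FULA 1 cells, a mouse lung adenocarcinoma line grown in serum-containing medium, in the lung of FVB mice injected with saline, and in the lung of FVB mice 1 week after an intraperitoneal injection of urethane, a carcinogen that gives lung tumours in this inbred strain. The sources used here do not give the number of mice behind each lung array, their age, the time at which the saline lung was taken or the genotype of FULA 1. With 1 array per group there was no spread between replicates to judge a difference by, so no test was run and every comparison below is between these arrays.

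Cytosolic ribosomes translate nuclear messages, and each consists of a large and a small subunit of ribosomal RNA and many proteins that are made in matched amounts. Messages for these proteins are among the most abundant of any cell, and most begin with a pyrimidine tract, the terminal oligopyrimidine (TOP) element, through which mTOR signalling sets their translation; MYC raises the transcription of many of them. The genes have left many processed copies (retrocopies) in the mouse genome, so array probes for them can meet near-identical sequence at several places, and the values below are uncertain for that reason.

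Sequences at the RefSeq starts are shown for the members with some of the largest differences below and for the pair Rpl39 and Rpl39l. They were searched for a pyrimidine run like that of the TOP element, and some held none. Each is 30 bases long, from 10 before to 20 after the start, in the direction of the gene, on build GRCm38.p6, with the first run of at least 6 pyrimidines that opens with C in capitals.
Rps6 (chr4:86857348-86857377, minus strand): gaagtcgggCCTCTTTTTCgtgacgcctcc
Rpl15 (chr14:18270967-18270996, minus strand): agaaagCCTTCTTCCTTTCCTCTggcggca
Rps27 (chr3:90213629-90213658, minus strand): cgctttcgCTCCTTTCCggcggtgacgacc
Rpl11 (chr4:136053374-136053403, minus strand): ccataaggccacggggccggaagtCTCCCT
Rpl5 (chr5:107900518-107900547, plus strand): cgtcgcttgcgtgctggtggtgctacatac
Rps16 (chr7:28350679-28350708, plus strand): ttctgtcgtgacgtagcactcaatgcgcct
Rpl39 (chrX:37085203-37085232, minus strand): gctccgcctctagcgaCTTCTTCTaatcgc
Rpl39l (chr16:10170218-10170247, plus strand): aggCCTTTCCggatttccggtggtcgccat
The run spanned the start in Rps6 (10 bases), Rpl15 (17 bases) and Rps27 (9 bases), lay before it in Rpl39l, lay after it in Rpl11 and Rpl39, and was absent from the windows of Rpl5 and Rps16. Of the 64 genes 49 were matched in the RefSeq table, with 58 starts, and 30 of these starts (51.7%) held such a run on the gene's strand, against 22.0% of all 32851 starts. On the opposite strand the shares were 10.3% and 25.2%. A C followed by 4 pyrimidines exactly at the start was found in 11 of the 58 (19.0%), against 2.51% of all starts and 0 of 68 starts of mitochondrial ribosomal protein genes. The letters CCGGAA, the core that ETS factors such as GABPA bind, on either strand of the 300 bases around the start, were in 48.3% of the members' starts, in 55.9% of those of mitochondrial ribosomal proteins and in 14.9% of all. A match describes these windows and not a bound site, and a RefSeq start can lie some bases from the start used in a given tissue.

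The arrays were not on one scale as deposited, with medians (log2) of 4.96 for the cell line, 0.08 for the saline lung and 1.22 for the urethane lung. Levels are therefore given as percentile ranks, the place of a row among all rows of its array, which no monotone scaling changes. Differences are on the log2 scale after quantile normalization of the 3 arrays. A rank reflects the affinity of a row's probes as well as the amount of RNA, so it is not a message level that can be set against another gene's. Among markers, the lung genes Sftpc, Scgb1a1, Ager and Pecam1 stood at ranks of 96.2 or more on both lungs and at 20.3 to 68.3 on FULA 1. Of 3 epithelial genes listed for the cell line, the keratins Krt8 and Krt18 were higher there than in the saline lung by 4.84 and 2.89, whereas Epcam, an epithelial adhesion gene, went the other way at -0.51, and at -1.28 against the urethane lung. Proliferation genes were higher in FULA 1 than in the saline lung by a median of 2.60 in 5 of 5, and 8 lymphocyte genes differed by a median of -1.28. Among these 8, Cd3d, Cd79a and Ms4a1 lay below the background mark (described further below) on all 3 arrays. In RNA from whole tissue, fewer cells of a type and less RNA per cell cannot be told apart, and the part of these marker differences in the results below was not tested.

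The ribosomal protein rows fell into a bright group and a broad lower group on every array. Over the 3 arrays, 49 of the 104 rows had a mean rank of at least 90, whereas 19 had one under 50. The median rank of the 104 rows was 81.6 for the cell line, 87.9 for the saline lung and 87.0 for the urethane lung, and 48.1% of them lay at or above rank 90 on each, against 11.7%, 10.8% and 10.7% of all singly named rows. The lowest row on FULA 1 belonged to Rps26, which encodes a small subunit protein at the messenger exit, and stood at rank 5.35. Another row of the same gene stood at 99.0 on that array.

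Where a row stood in the order of the table went with its brightness. Row numbers follow the genome: 98.4% of neighbouring named rows belonged to genes of the same chromosome. A row was taken as being at its gene's own place if at least 6 of the 10 nearest named rows belonged to genes of that chromosome and 1 of them started within 1 Mb of the gene in RefSeq; otherwise it was taken as lying elsewhere. This division was made after the values were seen, but uses none of them. By it, 61 rows lay at their own place and 43 elsewhere. The rows elsewhere had median ranks of 97.5 for the cell line, 97.9 for the saline lung and 97.7 for the urethane lung. The rows at their own place had 68.0, 65.7 and 65.2.

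**Figure D1:**
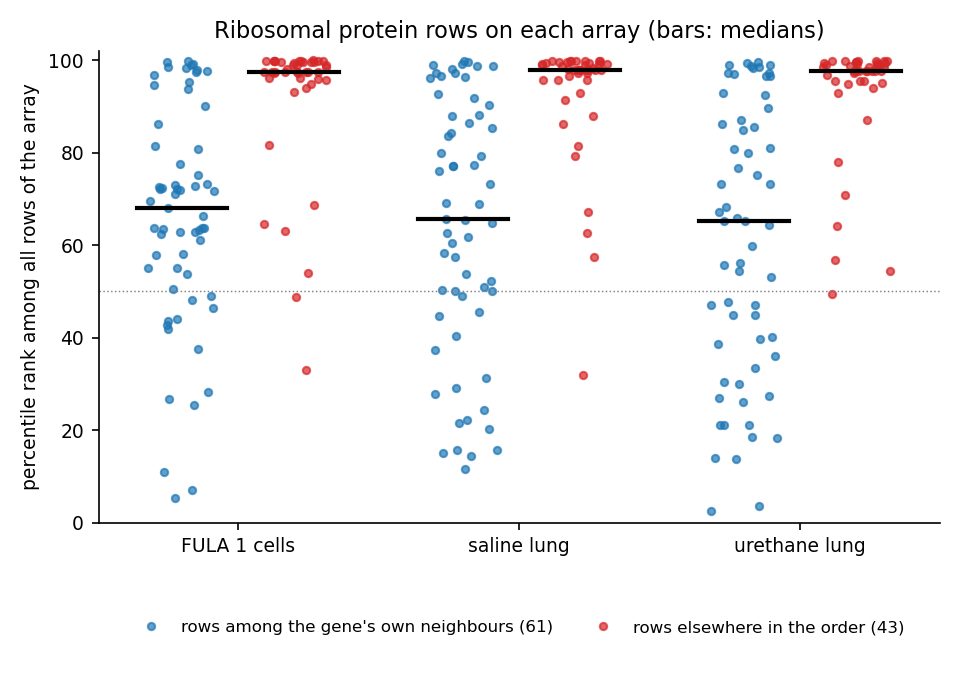
Percentile rank of each of the 104 ribosomal protein rows (points) on the FULA 1, saline lung and urethane lung arrays, with the 61 rows at their gene's own place in blue, the 43 rows elsewhere in red and black bars for the medians. The rows elsewhere crowd above rank 90 on every array, and those at their own place spread over the whole range around medians of 65.2 to 68.0.

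The same split held within genes. Of 21 genes with rows of both kinds, 18 (85.7%) had the brighter signal elsewhere on all 3 arrays, with median mean ranks of 57.2 at the own place and 97.8 elsewhere. Among 253 other genes with rows of both kinds the share was 31.2%, with medians of 71.9 and 54.9. Rps26 had the widest gap, from a mean rank of 14.1 at its own place to 99.0 elsewhere. Rps28, a short small subunit protein, stood at 32.3 and 98.9, and Rpl9, a large subunit protein, at 32.6 and 93.7. The exceptions were Rpl4, Rplp1 and Rps12: Rpl4 had 99.6 at its own place and 56.6 elsewhere, Rplp1 had 99.4 and 61.8, and Rps12 98.1 and 97.6. Another 6 genes, Rpl15, Rpl23a, Rpl28, Rpl39, Rps6 and Rps13, had singly named rows elsewhere only. Whether the rows elsewhere measure retrocopies, the parent message or both was not tested.

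**Figure D2:**
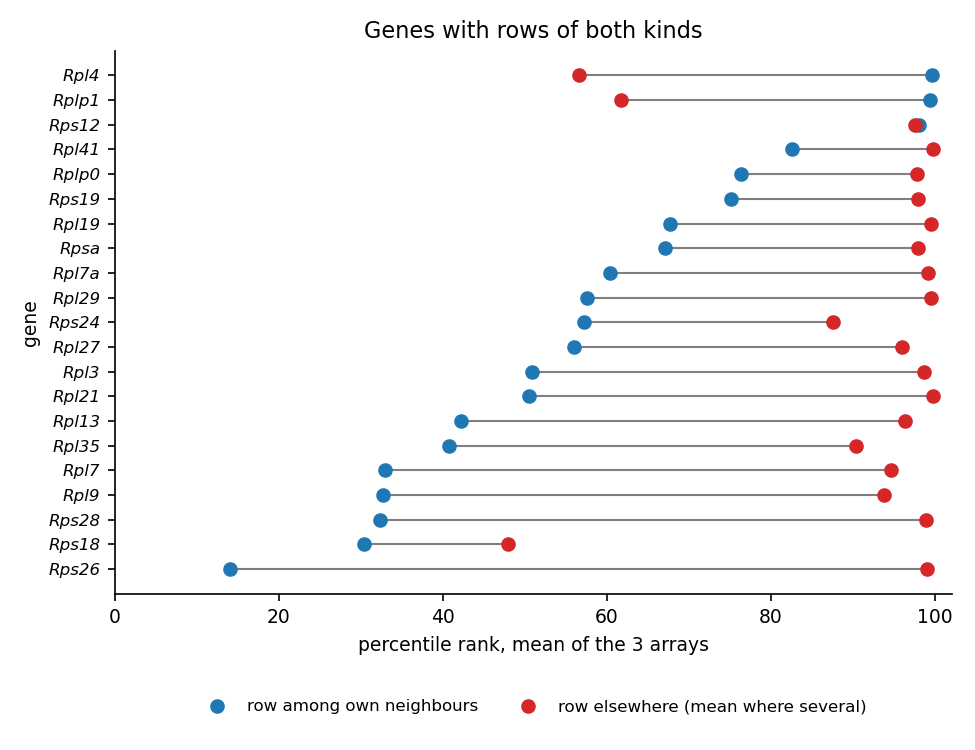
Mean percentile rank over the 3 arrays of the row at its own place (blue) and of the row or rows elsewhere (red), joined by a line, for each of 21 ribosomal protein genes with both kinds. Red lies to the right of blue in 18 genes, and Rpl4, Rplp1 and Rps12 are the exceptions.

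Several rows repeated each other. Of the 8 rows of Rps12, 6 held identical values on all 3 arrays, as did 2 of the 3 rows of Rps19 and both rows of Rpl23a, although the counts and medians of rows above take each row separately. With identical rows taken once, 97 rows remained, 61 at their own place and 36 elsewhere. The median ranks of those elsewhere were then 98.3 for the cell line, 98.1 for the saline lung and 98.0 for the urethane lung, and 42 of the 97 had a mean rank of at least 90. Of the 64 genes 24 had more than 1 row. In 17 of them a row with a mean rank of at least 90 stood beside one under 70. The bright own-place rows, 13 in number, belonged to Rpl4, Rpl8, Rpl10a, Rpl14, Rpl32, Rpl38, Rpl6l, Rplp1, Rps3, Rps4x, Rps9, Rps12 and Rps25.

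The rule did not reach every ribosomal protein. Of 77 canonical subunit genes listed, 58 had a singly named row, and 57 of these matched the rule (35 of the large and 22 of the small subunit). Rps3a1, a small subunit gene whose symbol ends in a digit, fell outside it; its ranks were 75.5 in the cell line, 95.9 in the saline lung and 96.1 in the urethane lung. A further 12 were present only in rows with several symbols, among them Rpl10, Rpl12, Rpl13a and Rps2, and 7 were not analysed here. The other 7 members were genes named as paralogs or relatives: Rpl3l, Rpl6l, Rpl10l, Rpl32l, Rpl39l, Rps4l and Rps27l. In all, 57 rows with several symbols held a symbol of the rule, with median ranks of 82.6 for the cell line, 94.0 for the saline lung and 93.4 for the urethane lung. Of the members, 18 had both a singly named row and a row with several symbols and no small nucleolar RNA symbol; the brightest such row was brighter than the mean of the singly named rows in 10. Its difference had the same sign as theirs in 9 of 18 for FULA 1 minus saline, 8 for FULA 1 minus urethane and 11 for urethane minus saline, so for these genes the direction depended on the row. Another 15 rows carried a single pseudogene symbol and had median ranks of 53.8, 55.8 and 54.4.

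Single genes ranged from the top of the array to its floor. Rps6, the small subunit protein that S6 kinases phosphorylate, had the highest mean rank over its rows and stood at 99.9 in the cell line and at 99.8 in either lung; its single-symbol row lay elsewhere in the order. Rpl28 (mean rank 99.6), Rpl15 (99.1), Rpl8 (98.9) and Rpl32 (98.9), all of the large subunit, followed in this list, which favours genes with 1 row: single rows of Rpl41 (99.8) and Rpl21 (99.8) were brighter than these 4, but were averaged with dimmer ones. At the other end were Rpl10l (8.74), a retrogene expressed in male germ cells, Rpl32l (13.6), Rpl11 (30.9), Rps4l (31.1) and Rpl5 (31.4). Rpl5 and Rpl11, which with the small ribosomal RNA of the large subunit bind and inhibit the p53 ligase MDM2, ranked 61.2 and 63.7 on FULA 1 and between 14.1 and 18.5 on both lungs. Each rested on 1 row, at the gene's own place, so these ranks describe that row alone. On the saline lung 12 of the 64 genes lay below the 95th percentile of 1105 olfactory receptor genes, used here as a mark of background, and 17 on the urethane lung and 9 on FULA 1. Of the rows below that mark on the saline lung, 25 lay at their own place and 2 elsewhere.

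FULA 1 cells and the saline lung differed in both directions over these genes. Of the 64 members 34 lay above 0 (FULA 1 minus saline), as did 44.7% of all genes. The median of the members was 0.14 and that of all genes -0.11. At least 2-fold higher were 7 members and at least 2-fold lower 9, among the 57 with the higher value at or above the floor of 2.37, the median of all normalized gene values. Over all genes past the floor 22.6% were higher and 22.0% lower by that size, and the shares of the members are smaller than these. When the arrays were only given a common median the counts were 18 higher and 7 lower, beside 51.6% and 13.1% of all genes past the floor in that setting. Large and small subunit genes stood apart in their medians, at 0.39 over 35 genes and -0.33 over 22. Above 0 lay 24 of 35 and 8 of 22, beside the 44.7% of all genes. With the background mark in place of their saline values, Rpl17, Rpl27a and Rpl37 no longer lay above 0. Rplp2, also counted among the 24, lay below the mark on both arrays. The median of the small subunit turned to 0.24 when the arrays were only given a common median. It stayed below that of the large subunit, 0.53 in that setting, under all 5 scalings.

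Of the 7 members at least 2-fold higher in FULA 1 than in the saline lung, 5 were of the large subunit. That subunit holds 35 of the 57 canonical members. With the background mark in place of lower gene means, Rpl3, Rpl15, Rpl32, Rps6 and Rps13 stayed past 2-fold. Rpl11 was at 2.65 on FULA 1 and 1.10 on the saline lung (normalized log2) and differed by 1.55, and Rpl5 by 1.47 (1.53 in a row shared with Rpl5-ps2); with the background mark in place of their saline values they were higher by at least only 0.18 and 0.08. Rpl15, a large subunit protein, was at 9.52 in the cell line, 8.11 in the saline lung and 8.27 in the urethane lung and was higher by 1.41. Its only singly named row, like those of Rps13 and Rps6, lay elsewhere in the order. A dimmer row annotated to Rpl15 and Gm10224 went the other way, at -1.07 against the saline and -0.90 against the urethane lung. Rps13, of the small subunit, was at 5.76, 4.38 and 5.47 and higher by 1.38 than in the saline lung, but by 0.29 than in the urethane lung, a sign that lowess scaling turned. Rpl32 was higher by 1.14. Rps6, at 12.29, 11.17 and 11.00, was higher by 1.12, a sign that turned to -2.43 under a common median, and a dimmer row shared with Rps6-ps4 was at -0.50. Rpl3, which helps shape the peptidyl transferase centre, differed by 1.36 as the mean of 3 rows; the difference was 3.52 in a row at its own place and 0.16 in the brightest row, which lay elsewhere.

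The lowest member was Rpl39l, a relative of Rpl39 known from testis and some tumours. Its level was 1.45 in the cell line, 4.60 in the saline lung and 3.80 in the urethane lung, and lower in FULA 1 by 3.15 against the saline lung (at least 2.64 if its FULA 1 value is raised to the mark). Its ranks of 26.6, 88.0 and 81.0 put it below background in the cell line only. Rpl39, which lines the exit tunnel, was at 2.70, 3.67 and 3.05 and differed by -0.97, which became 0.01 with a common median. The singly named row of Rpl39 lay elsewhere in the order, and that of Rpl39l at its own place. Rps15 (-1.61), Rps29 (-1.57, at least 1.45 lower with the mark), Rps10 (-1.48) and Rpl34 (-1.44) followed. All 4 rested on 1 row with saline ranks of 76.1 to 91.8, and their signs held under all 4 other scalings of the arrays, although with a common median Rps10 became -0.02, Rpl34 -0.15 and Rps15 -0.61. The sign of Rpl34 did not hold across its rows: a far brighter row shared with Rpl34-ps1, at ranks of 99.8, 99.7 and 99.6, was at 1.44 against the saline and 1.80 against the urethane lung. Rplp1, an acidic protein of the stalk that recruits elongation factors, was lower by 1.18. Its bright row was at 8.29, 10.02 and 9.63 and its other row at 2.23, 2.85 and 2.67, so the cell line was the lowest sample in both rows. Of the other stalk genes Rplp0 differed by -0.19, while Rplp2 lay below the background mark on all arrays and is given no size.

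Against the urethane lung the split was the same in kind, and this comparison shares its FULA 1 array with the one before. Of the 64 members 38 lay above 0, as did 46.0% of all genes, with a median of 0.29 against -0.08 for all genes. Higher by at least 2-fold were 11 members and lower 6 of the 54 past the floor, where 22.1% and 19.5% of all genes past the floor were called. The share of members higher lay near that of all genes, and the share lower was smaller than that of all genes. With a common median the counts were 29 and 3, beside 52.9% and 11.5% of all genes. The large subunit had a median of 0.54 with 25 of 35 genes above 0, and the small subunit one of -0.25 with 9 of 22. Of the 25, Rpl17 and Rpl27a no longer lay above 0 with the background mark in place of their urethane values. Rpl30 and Rplp2, also counted there, lay below the mark on both arrays. With a common median the small subunit's median became 0.85, against 0.94 for the large subunit. Rpl11 (1.59), Rpl32 (1.54), Rpl27a (1.34), Rpl5 (1.32) and Rps6 (1.30) were the highest, and the sign of Rps6 again turned with a common median, to -1.16. The urethane values of Rpl11, Rpl5 and Rpl27a lay below the background mark, and with the mark in their place Rpl11 and Rpl5 were higher by at least only 0.20 and 0.10, while Rpl27a no longer exceeded it. Rpl39l (-2.36), Rps16 (-2.25), Rpl34 (-2.19), Rps15 (-1.14) and Rps29 (-1.05) were the lowest. The FULA 1 values of Rpl39l and Rps29 lay below the mark, which leaves them lower by at least 1.84 and 0.93. Rows shared with other symbols gave 0.34 for Rps16, and -0.09 for Rpl27a, each brighter than the singly named row. When every gene mean under the background mark was raised to it, 6 of the 11 higher and 5 of the 6 lower remained past 2-fold. In the comparison with the saline lung 5 of 7 and 8 of 9 did. Single rows under the mark were not raised before averaging. Among the averaged genes that remained, Rpl21 and Rpl29 had own-place rows at 1.74 and 1.98 in the urethane lung, under its mark of 2.44. Rpl3 had such a row at 1.42. How many calls would remain with rows raised 1 by 1 was not tested.

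**Figure D3:**
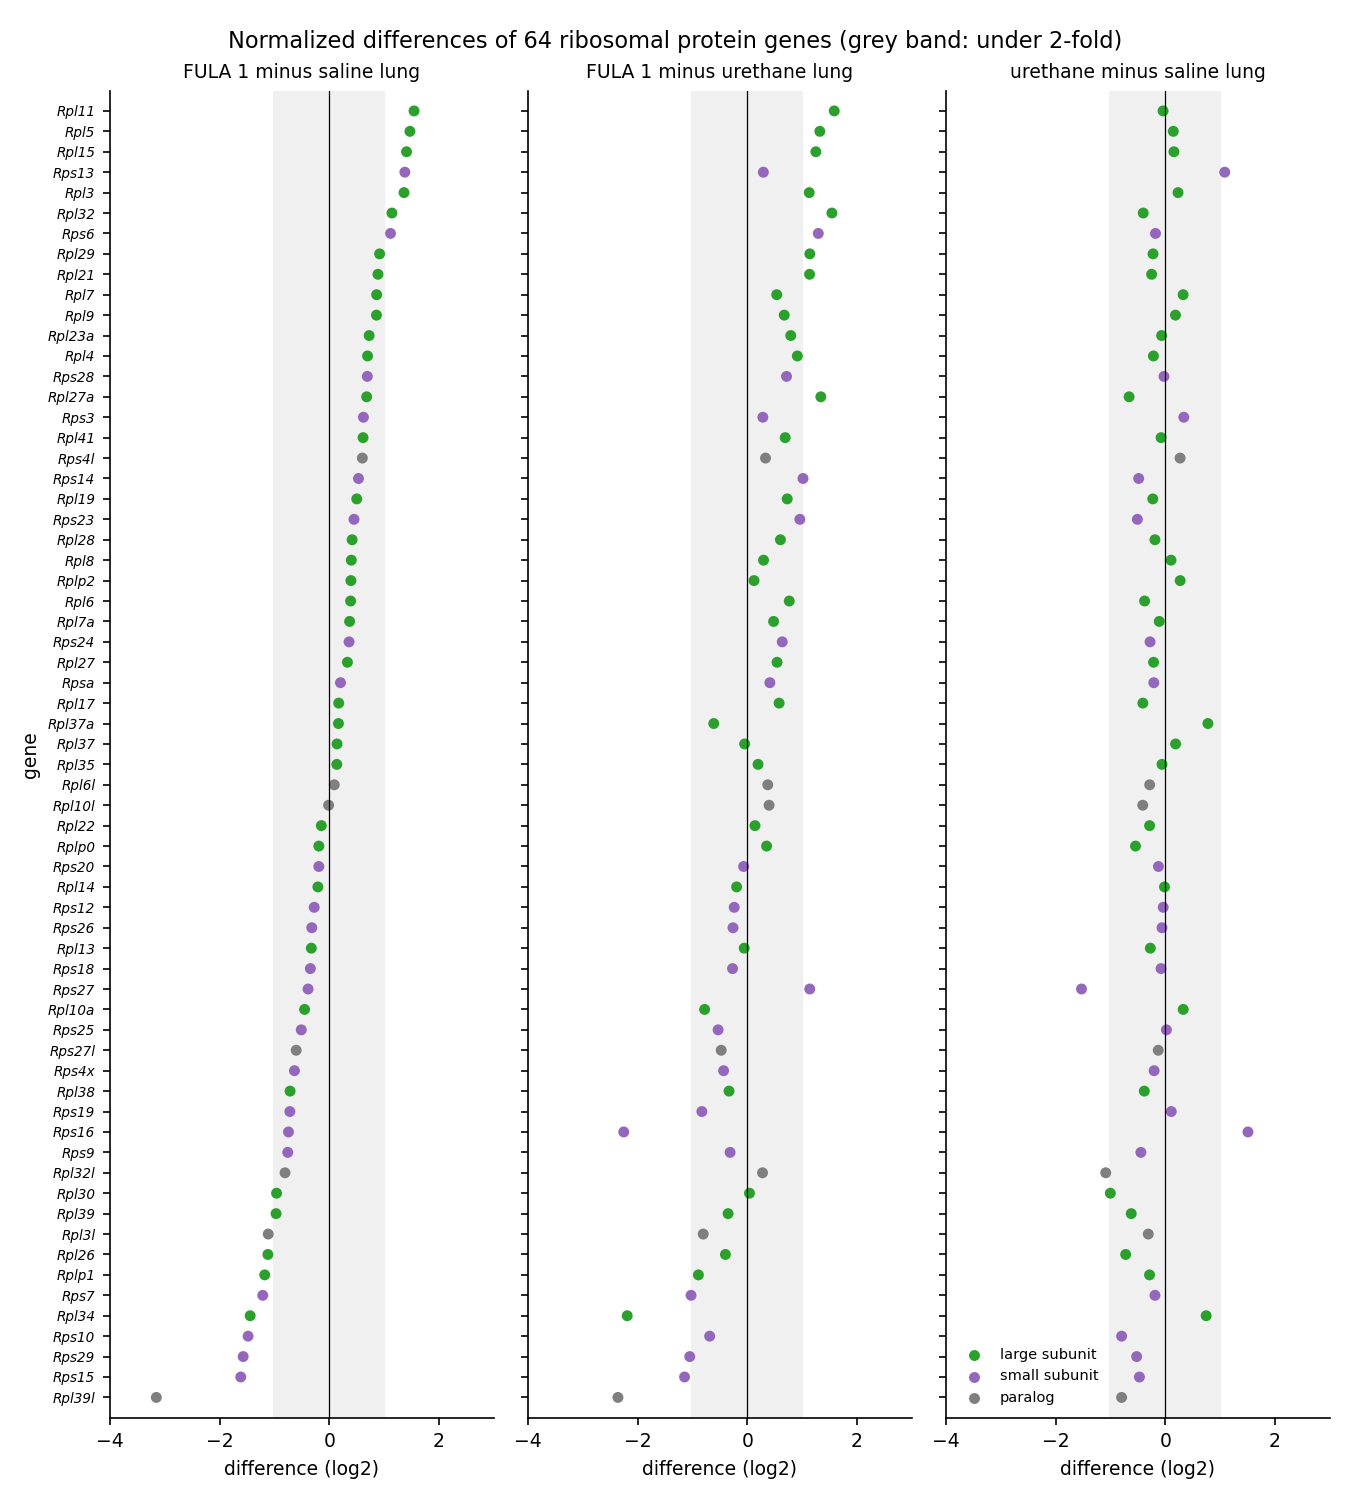
Normalized difference (log2) of each of the 64 ribosomal protein genes for FULA 1 minus saline lung, FULA 1 minus urethane lung and urethane minus saline lung, sorted by the first, with large subunit genes in green, small subunit genes in purple and paralogs in grey. In the first panel 24 of 35 green and 8 of 22 purple points lie to the right of 0, and the lowest gene of both FULA 1 panels is Rpl39l at -3.15 and -2.36; most points of the third panel lie within the grey band that marks less than 2-fold.

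The kind of row changed how many members passed 2-fold. Of the 61 rows at their own place 49 passed the floor, and 10 of these were at least 2-fold higher and 11 lower in FULA 1 (against saline lung). Of the 43 rows elsewhere 42 passed it, and 7 were higher and 1 lower. Of all singly named rows past the floor 23.0% and 22.6% were called, near the shares of the own-place rows. Against the urethane lung 47 own-place rows past the floor gave 14 higher and 7 lower, and 41 rows elsewhere 8 and 1, with 22.5% and 20.1% of all rows called. The rows elsewhere count the 6 identical rows of Rps12 separately, none of them called. The medians (FULA 1 minus saline) were -0.01 at the own place and 0.18 elsewhere. Split by subunit and averaged per gene, the rows at their own place gave 0.29 for 31 large and -0.48 for 20 small subunit genes, and those elsewhere 0.41 for 18 and -0.18 for 9. The large subunit median was therefore above that of the small subunit in both kinds of row. In the 21 genes with both kinds, the sign was the same in 12, and the median gap between the kinds was 0.82, as it was 0.81 in the 253 other genes.

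Between the lungs the differences were smaller. Of the 64 members 17 lay above 0 (urethane minus saline), with a median of -0.20 against -0.06 for all genes, of which 44.4% lay above 0. Members with the same sign under quantile, median and lowess scaling numbered 50 of 64, of which 41 were lower and 9 higher. The like share of all genes is not given here, and the median of all genes also lay below 0 in each scaling (-0.091 to -0.0068). The count takes in members below the background mark on both lungs, such as Rpl17, Rpl27a and Rps14 (lower) and Rplp2 and Rps4l (higher). It is therefore not read as a shift of the members. At least 2-fold higher were Rps16 and Rps13 and at least 2-fold lower Rps27 and Rpl30, that is 2 and 2 of 53 past the floor, where 3.27% and 1.31% of all genes were called; with a common median the counts were 2 and 6, beside 1.79% and 1.69% of all genes. Proliferation genes differed by a median of -0.44 and lymphocyte genes by -0.24 between the same arrays, the latter with Cd3d, Cd79a and Ms4a1 below the mark. The part of both lists in these differences was not tested. Row by row the counts were 3 higher and 2 lower of 80 past the floor, with 3.64% and 1.41% of all rows called.

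Rps16, a protein of the small subunit head, had a level of 2.02 in the cell line, 2.77 in the saline lung and 4.27 in the urethane lung and so differed by 1.51 between the lungs. In a brighter row shared with Rps16-ps2, at ranks of 99.4, 99.3 and 99.2, the lungs differed by -0.21 and FULA 1 from the saline lung by 0.13. Rps13 was higher by 1.09, in a row that lay elsewhere in the order. Rpl37a was higher by 0.78, Rpl34 by 0.75 and Rps3 by 0.34, and the last sign turned with a common median. Brighter rows shared with other symbols went the other way for Rpl37a (-0.08) and Rpl34 (-0.36). Rps27, a zinc finger protein of the small subunit, was at 3.12, 3.51 and 1.98 and lower in the urethane lung by 1.53, or at least 1.06 with the mark; a brighter row shared with Rps27rt was at -0.0044 between the lungs and at -1.34 in FULA 1 minus saline. Rpl32l lay below the mark on all arrays and is given no size, Rpl30 was at 2.92 in the saline lung and 1.92 in the urethane lung (lower by at least 0.48; -0.18 in a brighter row shared with Gm12191), Rpl39l at -0.80 and Rps10 at -0.80. All of these rested on a single singly named row each. The medians were -0.19 for the large and -0.18 for the small subunit.

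The paralog pairs are given side by side. Rps27l, a p53-induced relative of Rps27, ranked 86.2, 90.3 and 89.6 on FULA 1, saline lung and urethane lung and differed by -0.60 (FULA 1 minus saline) and -0.13 (urethane minus saline), where Rps27 was at -0.39 and -1.53. Rps4x, the X-linked small subunit gene, ranked 98.2, 98.9 and 98.7 and differed by -0.63, while Rps4l lay below the mark on all arrays. Rpl3l, the muscle form of Rpl3, was at 1.48, 2.59 and 2.28, which put FULA 1 under the saline lung by 1.11 or at least 0.63. Rpl22 was at 3.35, 3.49 and 3.21 and differed by -0.14. Rpl6l stood at ranks of 97.4, 97.2 and 96.6 and differed by 0.09, and Rpl6, on a single row at ranks of 69.5, 61.8 and 53.1, by 0.39. Rpsa, also the laminin receptor precursor, differed by 0.20 and 0.41 against the saline and urethane lungs. With a common median the FULA 1 differences of Rps27l, Rps27 and Rpl22 against the saline lung turned to 1.00, 0.79 and 1.15, that of Rplp0 to 0.73, and lowess turned that of Rpsa to -0.03. Outside the rule, Rpl22l1 lay below the mark on all arrays, Rpl7l1 differed by -0.32 in FULA 1 against the saline lung, and Fau, whose product carries a small subunit protein, by -0.30.

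Genes of ribosome assembly had a larger median difference from the lungs than the ribosomal proteins. FULA 1 exceeded the saline lung by 2-fold or more in 27 of 48 assembly factors and RNA polymerase I genes and fell short by as much in 1, with a median of 1.08 and 40 of 48 above 0, where 22.6% of all genes past the floor were higher and 22.0% lower. Wdr43, of the small subunit processome, was higher by 2.50 and Gnl3, the nucleolar GTPase nucleostemin, by 2.43, while Ebna1bp2 was lower by 1.16 and Sbds was at -0.96. Mitochondrial ribosomal proteins gave 16 higher, near the share of all genes, and 5 lower of 69 past the floor (median 0.28 over 72), with Mrpl45 higher by at least 1.96 and Mrpl32 by at least 1.32 (their saline values lay below the mark) against Mrps26 at -1.84 and Mrpl58 at -1.69. Elongation factors and other TOP messages gave 3 higher and 2 lower of 20 (median 0.25), beside the 22.6% and 22.0% of all genes. They ranged from Eif4b at 1.67 and Eif3a at 1.61 to Tpt1 at -2.04 and Btf3 at -3.18. Of 14 regulators 12 passed the floor, and 4 of these were higher and 2 lower, beside the same shares. Myc, the transcription factor, was higher by 3.34 and the S6 kinase gene Rps6kb2 by at least 1.68. Max was lower by 1.21 and Eif4ebp2, a translation repressor, was at -1.70. Against the urethane lung the assembly genes gave 26 higher and 0 lower (median 1.08), beside 22.1% and 19.5% of all genes. In the urethane lung against the saline lung they gave 1 and 0 (median -0.08), beside 3.27% and 1.31%.

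**Figure D4:**
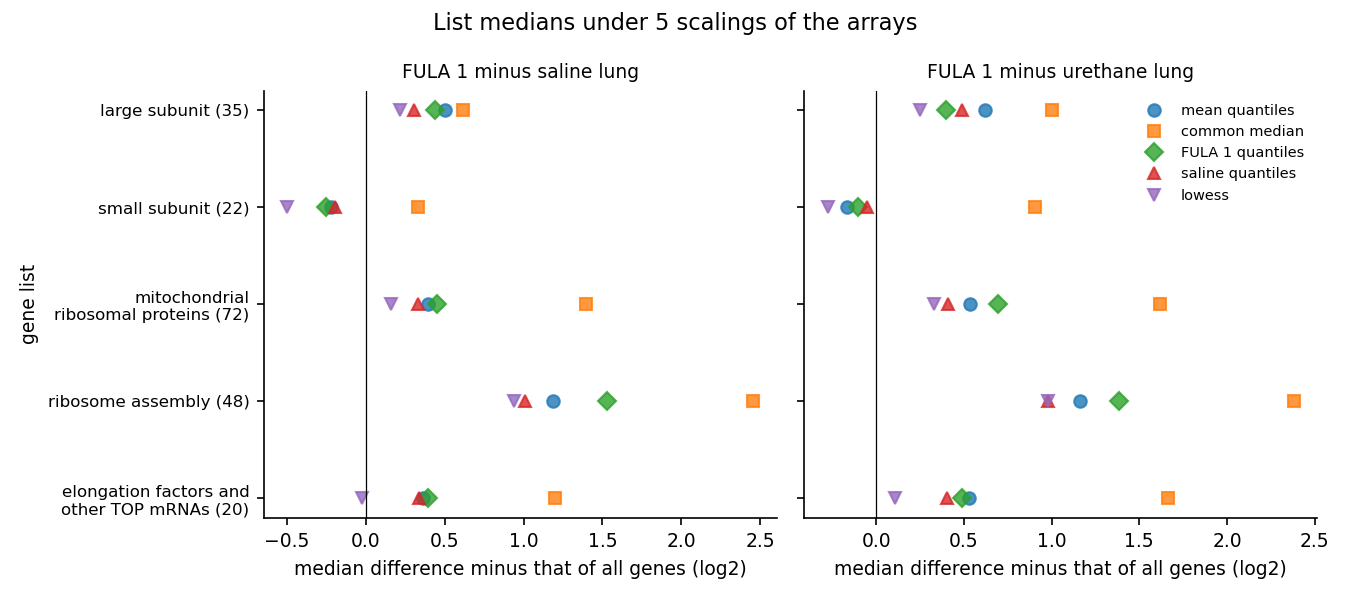
Median difference of 5 gene lists minus the median of all genes (log2) for FULA 1 against the saline and the urethane lung, each under 5 scalings of the arrays (symbols), with the number of genes in brackets. Ribosome assembly lies furthest right under every scaling, and the large subunit lies to the right of the small subunit under every scaling in both panels.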

How the data were processed

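The deposited table holds 1 log2 value per row and array, made by the authors with RMA per the submitters' processing notes and with GeneSpring GX 12.5 per the series' design text; which annotation and build were used, and whether the arrays went through RMA together, the sources used here do not state. Labelled RNA was biotinylated total RNA. The table has 3 columns of values, all of these samples (0 of others). Arrays were brought to one distribution by quantile normalization, ties taking their mean rank (pandas 2.3.3, scipy 1.17.1), and singly named rows were averaged per gene. Of the rows, 23521 had 1 symbol, 1814 several and 16010 none. Ranks are percentiles over all rows of an array. A gene was called at 2-fold if its higher value reached the floor. The steps were run on simulated data with planted differences, little noise and a monotone rescaling of 1 array. Quantile normalization removes such a rescaling by design. The run therefore cannot show how the steps fare on arrays as unlike as these. The members and lists were chosen with earlier results of these data known. Named genes were the 5 highest and 5 lowest members of each comparison and of mean rank, fixed paralogs, and the 2 highest and 2 lowest of each other list in the comparison described; others (such as Rps28 or Rps26) were named after their values were seen. RefSeq names served for row order and matched 23325 rows. The number of arrays limits the precision.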

Additional observations from a re-analysis of the deposited data

How the results depend on the processing

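Each count and median was recomputed with 1 choice changed at a time; the 4 choices of rows (own place, elsewhere, brightest, identical rows once) were added after seeing the data. The median for FULA 1 minus saline lung, 0.14, became 5.20 as deposited, 0.31 with a common median, 0.035 and 0.092 with FULA 1 or saline quantiles, -0.0054 with lowess, 0.12 row by row, 0.17 for canonical genes, 0.10 with added genes, 0.11 with rows of several symbols, and -0.0086, -0.079 and 0.18 with the brightest, own-place or elsewhere rows. For FULA 1 minus urethane lung, 0.29, the same settings gave 4.62, 0.87, 0.21 and 0.17, 0.12 with lowess, 0.23 row by row, 0.28 with added genes, and 0.21, 0.13 and 0.43. For urethane minus saline lung, -0.20, they gave 0.73 as deposited, -0.42 with a common median, -0.15 and -0.17 with the other quantiles, and -0.18 with lowess, row by row, for canonical genes and for rows elsewhere. The medians of all genes moved too. As deposited they were 4.80 for FULA 1 minus saline lung, 3.69 for FULA 1 minus urethane lung and 1.09 between the lungs. The 0.73 of the members between the lungs thus lay below all genes. With lowess the medians of all genes were -0.021, -0.017 and -0.0068. Ranked among singly named rows only, the median ranks were 76.9, 86.5 and 85.6. The count of 16 for FULA 1 against saline lung became 34 at 1.5-fold, 1 at 4-fold, 64 as deposited and 25 with a common median, each of 64 genes. Row by row it became 29 of 104 rows. With the rows elsewhere averaged per gene it became 5 of 27 genes. In these 2 settings 23.0% and 22.6% of all rows, and 22.6% and 22.0% of all genes, were higher and lower. In the first 4 settings the shares of all genes higher and lower moved too. They were 33.9% and 33.7% at 1.5-fold, 6.27% and 5.64% at 4-fold, 99.5% and 0.092% as deposited, and 51.6% and 13.1% with a common median. The count of 17 against the urethane lung became 32, 3, 64, 32, 30 and 6, and 11 both with a floor at the 75th percentile and with saline quantiles; the shares in the first 4 settings were 34.0% and 30.9%, 5.84% and 5.11%, 99.0% and 0.101%, and 52.9% and 11.5%. The 4 of the lungs became 10, 0, 12, 8 and 1 (row by row it stayed within 1.5 times), and 2 with the higher floor, with shares of 11.0% and 10.7%, 0.136% and 0.0080%, 63.9% and 0, and 1.79% and 1.69% in the first 4. In all 3 comparisons the counts row by row and for rows elsewhere have bases other than the 64 genes. The shares of all genes with the higher floor and with saline quantiles are not given here. The counts in those settings are therefore not read as a result about the members. The cause of the other shifts was not tested. No paired analysis was possible because each group has 1 array.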

Other observations

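Rows that carry small nucleolar RNA symbols, which guide ribosomal RNA modification and often lie in introns of ribosomal protein genes, were looked at after the values were seen. Of 75 rows with 1 such symbol, 55 lay below 0 in FULA 1 minus saline lung, with a median of -1.83. Of the 64 past the floor 42 were at least 2-fold lower and 6 higher, beside 22.6% and 23.0% of all singly named rows. Against the urethane lung 61 lay below 0, with a median of -2.12. Between the lungs (urethane minus saline) 54 lay above 0, with a median of 0.22. Of 9 rows that carry both a small nucleolar RNA and a ribosomal protein symbol, and so fall outside the singly named members, 6 were at least 2-fold lower and 1 higher in FULA 1 than in the saline lung, from -6.83 to 2.92, beside the same shares of all rows. The median ranks of these 9 rows were 89.4 for the cell line, 98.3 for the saline lung and 98.8 for the urethane lung. The comparisons share arrays, and none has a replicate.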
